A study of Canis lupus familiaris with 124 samples.

Results

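MMP2 and MMP3 are the 2 matrix metalloproteinases whose identifiers the study pairs with a symbol (ENSCAFG00000009421 and ENSCAFG00000015063), out of 32183 genes listed per sample. Both were followed through every RNA-seq library of 8 canine carcinoma cell lines and 9 tumor tissues. MMP2 (gelatinase A) cleaves denatured collagen and basement membrane collagen. MMP3 (stromelysin 1) cleaves proteoglycans, laminin and fibronectin and activates other matrix metalloproteinases. Both enzymes are secreted as inactive proenzymes. In solid tumors MMP2 is known mainly as a product of fibroblasts, while MMP3 is made by stromal and epithelial cells and its transcription responds to cytokines and growth factors. In the RefSeq annotation of another dog assembly (UU_Cfam_GSD_1.0), MMP3 lies on chromosome 5 between MMP12 and MMP1, and MMP2 lies on chromosome 2 between CAPNS2 and IRX6.

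Prostate adenocarcinoma (PAC) gave the cell lines Adcarc0846, Adcarc1508 and Adcarc1511.1, and its lymph node metastases gave Metadcarc1511.2 and Metadcarc1511.3. Transitional cell carcinoma (TCC) gave TCC1506, TCC1509 and TCC0840. The tissues were P2 (PAC), Ln4.2 and Ln4.3 (PAC metastases), P6.1 (TCC of the prostate), B7, B8, B9 and B10 (TCC of the bladder) and Ln6.2 (TCC metastasis). Adcarc0846 was derived from P2, Metadcarc1511.2 from Ln4.2, Metadcarc1511.3 from Ln4.3, TCC1509 from P6.1 and TCC1506 from B7, and TCC0840 was grown from a fine needle aspirate. All lines were kept untreated in Medium 199 with fetal calf serum, each line stands for 1 tumor of 1 dog, and 3 lines and 2 tissues came from the same dog. The dogs were 6 to 11 years old, and the donors of B7, B8, B9 and B10 were female while the others were male. All males are recorded as neutered except the donor of P2 and Adcarc0846. Of the females only the donor of B9 is recorded as neutered. TCC0840 and Adcarc0846 had 2 libraries, the other 6 lines had 3 and each tissue had 1. The libraries of a line differ in passage in nearly all cases but are samples of 1 line, so the spread between them may be technical.

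The cell line libraries held 15355798 to 19935282 expected counts and the tissues 11920463 to 18086895. Levels are given as CPM, the share of a library's total counts. A count of 0 allows up to 3 counts, which is 0.150 to 0.195 CPM in a line library and 0.166 to 0.252 CPM in a tissue. Line RNA and tissue RNA were isolated with different kits. The sample numbers in the labels repeat between libraries and were read as separate series, which the labels do not name. By this reading 16 of the 22 line libraries carry sample numbers of another series than the tissues, although only some of them share a number with a tissue. The 10 epithelial markers summed to 775 CPM (TCC1509) to 5720 CPM (TCC1506) in the pooled lines and to 203 CPM (P2) to 4728 CPM (B9) in the tissues, and none of the 10 was at 0 in any sample. P2 and Ln6.2 (293 CPM) were low for these markers among the tissues. Ensembl identifiers were paired with symbols through a list that the study had ranked on drug resistance of these same lines. TIMPs and other metalloproteinases were therefore not analysed here.

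MMP2 was present in every tissue and nearly absent from every cell line. It was at 0 counts in 17 of 22 line libraries, and all 22 together held 16 counts. Of these, 9 were in TCC1506, 3 each in Adcarc1508 and TCC1509 and 1 in Adcarc1511.1, while TCC0840, Adcarc0846, Metadcarc1511.2 and Metadcarc1511.3 had none. Only 2 line libraries, both of TCC1506, were above 3 counts, at 0.293 and 0.208 CPM.

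Among the tissues MMP2 was highest in P2, at 2051 CPM. Ln6.2 followed with 975 CPM and Ln4.2 with 857 CPM. The middle of the order was formed by P6.1 with 278 CPM, B9 with 243 CPM, Ln4.3 with 171 CPM and B7 with 168 CPM. B10 had 78.3 CPM and B8 70.6 CPM. Counting error was small against these gaps: the exact 95% Poisson intervals of Ln4.3 (165 to 178 CPM) and B7 (161 to 174 CPM) overlapped, as did those of B10 (73.3 to 83.5 CPM) and B8 (66.7 to 74.6 CPM), and no other neighbours in the order did. With 1 library per tissue, the spread between samplings of a tissue is unknown. Ranked by the authors' TPM, MMP2 was the 112th highest of 19491 expressed genes in P2 and the 230th of 19183 in Ln6.2, but the 3815th of 19285 in B8.

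**Figure D1:**
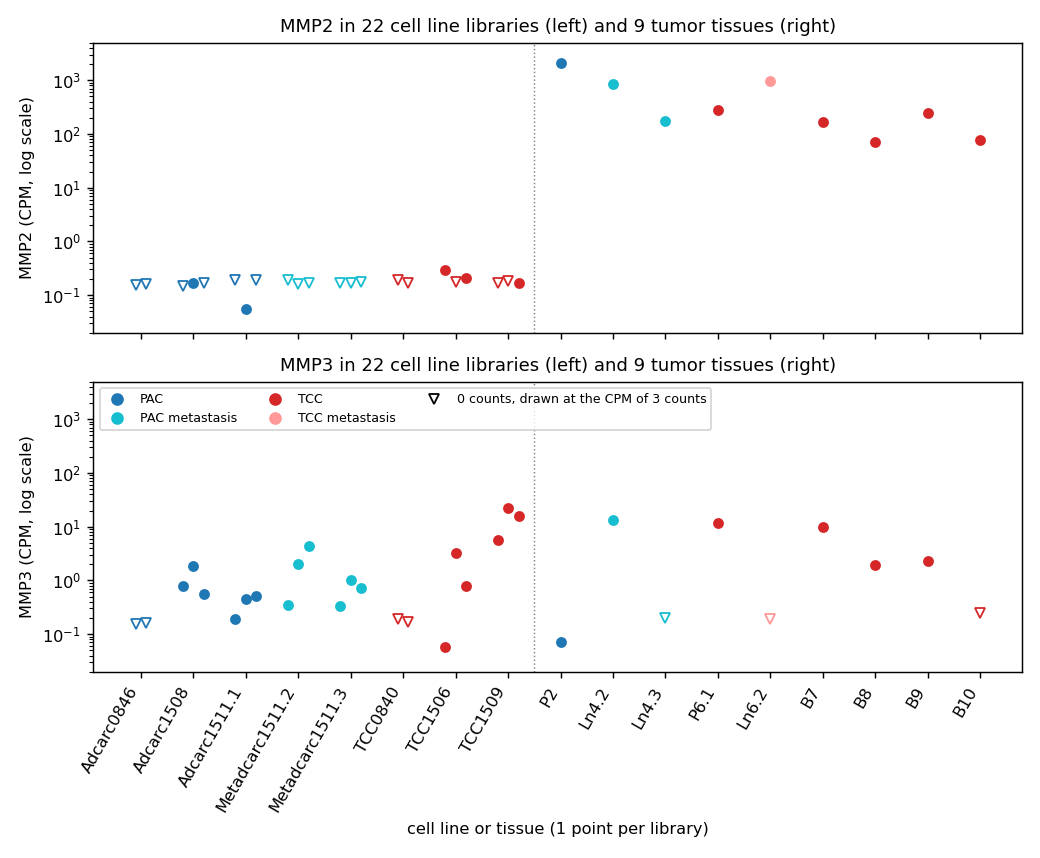
MMP2 (upper panel) and MMP3 (lower panel) in CPM on a log axis, with 1 point per library, the 8 cell lines left of the dotted line and the 9 tissues right of it, colored by tumor class. Open triangles mark 0 counts and are drawn at the CPM of 3 counts. All 9 tissues lie above every line library for MMP2, whereas for MMP3 lines and tissues overlap and TCC1509 reaches the level of the highest tissues.

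The lowest tissue, B8, had 417-fold more MMP2 than the highest pooled line, TCC1506. In the comparison of 8 lines with 9 tissues MMP2 was lower in the lines by a log2 fold change of -13.64 (SE 1.26, adjusted p = 1.48e-06, edgeR quasi-likelihood test), and it was among the 16.4% of 16327 genes called (adjusted p not above 0.01 and a change of 2-fold or more). Every line was below every tissue, which held for 5.16% of the genes tested. In these bulk samples, fewer cells that express the gene and less RNA per cell cannot be told apart.

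Separately by class, the 5 lines from PAC and PAC metastases held 4 MMP2 counts in all and the 3 PAC tissues 43243, which is a 62368-fold difference in the summed CPM (exact 95% interval 24357 to 228908, counting error only). The fitted log2 fold change was -15.67 (SE 1.28, adjusted p = 2.58e-06 by edgeR), where 14.5% of genes were called. Adcarc1511.1, Metadcarc1511.2, Metadcarc1511.3, Ln4.2 and Ln4.3 came from the same dog and were fitted as separate samples. The fits by class did not take the dog or the pairing of line and tissue into account. The 3 TCC lines held 12 counts and the 5 primary TCC tissues 13135.5, a 1970-fold difference (1127 to 3814). Here the log2 fold change was -10.94 (SE 1.37, adjusted p = 0.000743 by edgeR), where 2.76% of genes were called. This share rests on few samples: 450 genes were called in all, and 102 to 125 when 1 of the 3 TCC lines was left out. With only the line libraries that carry sample numbers of the tissues' series, MMP2 was called in neither class. The log2 fold change was -17.42 for PAC and -10.98 for TCC (adjusted p = 0.0254 by edgeR). In that setting the single PAC line is Adcarc0846 at 0 counts, so the size of -17.42 is not measured. For TCC 0 of 15581 genes were called, with 3104 at an unadjusted p below 0.05. The difference between both effects was -4.73 (SE 1.41) with an adjusted p of 0.123 by edgeR (unadjusted p = 0.00443) and was not called. Only 0.00612% of genes were called for this difference.

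In the matched samples, MMP2 was lower in Adcarc0846 than in P2 by at least 25986-fold, in Metadcarc1511.2 than in Ln4.2 by at least 14801-fold and in Metadcarc1511.3 than in Ln4.3 by at least 2996-fold, taking 3 counts for the 0 of each line. P6.1 exceeded TCC1509 by 4818-fold (1647 to 23367) and B7 exceeded TCC1506 by 991-fold (521 to 2169). In the paired test of the PAC metastases, whose pairs came from the same dog, MMP2 was called (adjusted p = 0.00449 by edgeR, 11.2% of genes called). Without the pair as a block the adjusted p was 0.0123 and the call was lost. In the paired test of TCC edgeR called 0% of 13599 genes, with 845 at an unadjusted p below 0.05, among them MMP2 (log2 fold change -10.93, SE 1.11, unadjusted p = 0.00117, adjusted p = 0.517). DESeq2 called 489 genes in the same pairs, MMP2 included (adjusted p = 5.66e-30).

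Between the tumor classes, MMP2 did not pass the test. The 3 PAC tissues had 2051, 857 and 171 CPM, and the 5 primary TCC tissues 70.6 to 278 CPM with a median of 168 CPM, so that both groups overlapped through Ln4.3. The log2 fold change of primary TCC against PAC tissues was -2.59 (SE 0.79, adjusted p = 0.0696 by edgeR, unadjusted p = 0.00502), and 0.398% of genes were called, a count of 65 that fell by edgeR to 0 without B9 (3561 at an unadjusted p below 0.05) and to 3 without B8. Of the 3 PAC tissues, Ln4.2 and Ln4.3 were metastases of 1 dog, fitted as separate samples, and the TCC metastasis Ln6.2 (975 CPM) was not in this comparison. Tumor class, metastasis, organ and sex cannot be told apart here, since all 3 PAC tissues came from males and 4 of 5 TCC tissues from the bladder of females. Neuter status varied within both groups. Tissues of the same dog also differed. Ln4.2 had 5.01-fold more MMP2 than Ln4.3 (4.80 to 5.23), and the metastasis Ln6.2 had 3.50-fold more than the prostate tumor P6.1 (3.39 to 3.62), where the intervals cover counting error only.

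The sum of stromal markers moved with MMP2 across the tissues. The 9 fibroblast and stromal markers (COL1A1, COL1A2, COL3A1, DCN, SPARC, POSTN, FBLN1, OGN and ISLR) summed to 92884 CPM in P2, 60108 CPM in Ln4.2 and 48236 CPM in Ln6.2, the 3 tissues with the most MMP2. The other 6 tissues had 548 CPM (B7) to 8707 CPM (Ln4.3). The relation was not one of proportion: the ratio of MMP2 to the marker sum was highest in B7, which had the lowest sum, and lowest in Ln4.2. Collagens had the largest values in the sum, and it is not a measure of stromal cells. COL1A1, COL3A1 and COL1A2 reached 36002.5, 24995.5 and 23561.4 CPM in a tissue, and no other marker exceeded 3307.42 CPM (SPARC). None of the 9 markers was at 0 in any tissue, and 0 to 4 of them were at 0 in a pooled line. The lines summed to 12.4 to 98.6 CPM apart from TCC1509 with 1041 CPM. In TCC1509 the sum came mostly from COL3A1 (577 CPM) and DCN (419 CPM), and without them it was 45.7 CPM. Of the 9 markers 5 (COL1A1, COL1A2, SPARC, POSTN and FBLN1) were lower in TCC1509 than in every tissue. The smooth muscle marker ACTA2 reached 0.038 to 13.4 CPM in lines and 12.7 to 874 CPM in tissues. The sums of 6 endothelial markers (5.34 to 82.7 CPM against 78.8 to 1767 CPM) and of 12 leukocyte markers (2.74 to 301 CPM against 238 to 5833 CPM) were lower in most lines as well, with 0 to 2 and 4 to 8 genes at 0 in a line and none in a tissue. Of the endothelial markers FLT4 reached 81.9 CPM in a line and was not called, while VWF, KDR, TEK, ICAM2 and CD93 reached at most 3.35 CPM. The highest leukocyte marker in a line was CD74 with 264 CPM. The part of any cell type in the MMP2 difference was not tested.

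**Figure D2:**
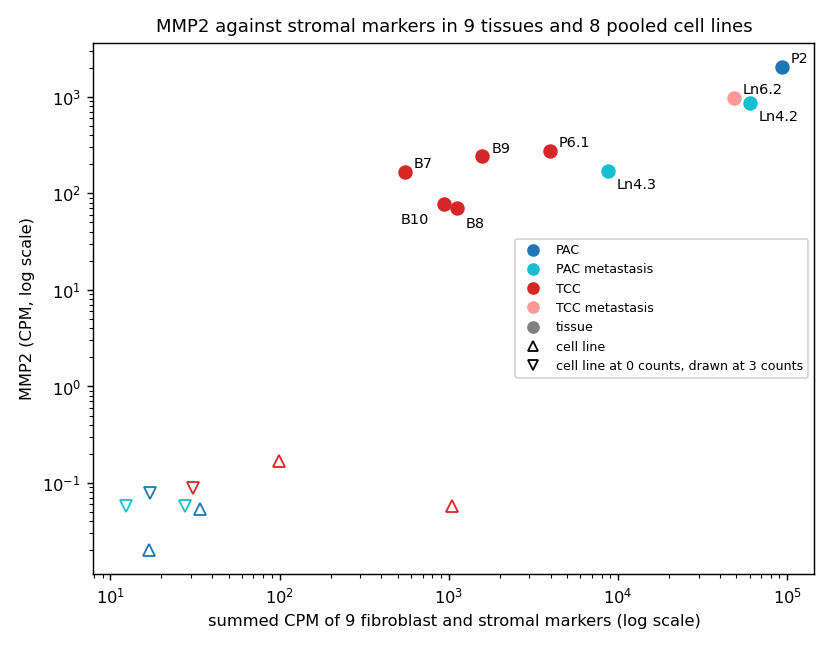
MMP2 in CPM against the summed CPM of 9 fibroblast and stromal markers, both on log axes, with filled circles for the 9 tissues and open triangles for the 8 pooled cell lines (downward triangles are lines at 0 counts, drawn at the CPM of 3 counts). P2, Ln4.2 and Ln6.2 are highest on both axes, and the lines lie lowest for MMP2; the line at 1041 CPM of markers is TCC1509, where COL3A1 and DCN make up most of the sum.

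The genes whose log2(CPM + 1) followed MMP2 most closely over the 17 pooled samples, among 1090 genes with a symbol, were COL1A2 (Pearson r = 0.98), SEMA6D (0.98), C1QTNF6 (0.97), COL6A1 (0.97) and PXDN (0.97). COL1A2 and COL6A1 encode collagen chains, and PXDN encodes peroxidasin, which crosslinks collagen IV. All these points share the contrast of cultured lines with tissue. Over the 9 tissues alone, which come from 7 dogs, the 5 closest were FBLN1 (r = 0.95), which encodes the matrix protein fibulin 1, BACE1 (0.93), SHROOM4 (0.93), SNX29 (0.93) and C1QTNF3 (0.93). No gene was in both sets of 5.

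MMP3 behaved differently. It was found in lines and in tissues, at levels far below those of MMP2 in tissue, and no group was uniform. Of the 9 tissues, Ln4.2 had 13.6 CPM, P6.1 11.7 CPM and B7 9.88 CPM, the intervals of neighbours in this order overlapping. B9 had 2.29 CPM and B8 1.97 CPM, again with overlapping intervals. P2 had 1 count, and Ln4.3, Ln6.2 and B10 had 0. Both dogs with 2 tissues thus had 1 tissue with MMP3 and 1 without: Ln4.2 exceeded Ln4.3 by at least 67.1-fold and P6.1 exceeded Ln6.2 by at least 62.2-fold. In dog 4 the tissue with MMP3 was also the one with more MMP2, and in dog 6 it was the one with less. P2, the tissue highest for MMP2, was at the limit of detection for MMP3.

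Expression per transcript length can be compared through the authors' TPM. In the 5 tissues with more than 3 MMP3 counts, MMP2 exceeded MMP3 by 9.05-fold (B7), 12.4-fold (P6.1), 19.1-fold (B8), 33.7-fold (Ln4.2) and 56.4-fold (B9). In 6 of the 8 pooled lines MMP3 was the higher of the pair, and in TCC0840 and Adcarc0846 both were at 0. TCC1509 had 16.6 TPM of MMP3 and 0.035 TPM of MMP2, TCC1506 had 1.48 and 0.106, and Metadcarc1511.2 had 2.69 and 0. In the first library of TCC1506 MMP2 was above MMP3 (0.19 against 0.07 TPM), at 5 counts and 1 count.

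Among the lines, TCC1509 had the most MMP3, at 14.4 ± 8.26 CPM (SD, n = 3 libraries), with 5.53, 21.9 and 15.9 CPM in its libraries. Metadcarc1511.2 had 2.27 ± 2.07 CPM (0.344, 2.01 and 4.45), and TCC1506 had 1.36 ± 1.67 CPM (0.0587, 3.25 and 0.780). Adcarc1508 had 1.08 ± 0.703 CPM (0.803, 1.88 and 0.556). Below it were Metadcarc1511.3 with 0.685 ± 0.332 CPM (0.341, 1.00 and 0.710) and Adcarc1511.1 with 0.380 ± 0.164 CPM (0.193, 0.444 and 0.502). TCC0840 and Adcarc0846, the lines of highest passage, were at 0 counts in both libraries each. The SD was larger than the mean in TCC1506 and nearly as large in Metadcarc1511.2.

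MMP3 differed among the 8 lines (adjusted p = 2.82e-05, edgeR F test), as did 68.0% of the 14608 genes tested. Of the 28 pairs of lines 8 were called, and 6 of these set TCC1509 above another line, with Metadcarc1511.2 as the exception (log2 fold change 2.59, SE 0.86, adjusted p = 0.0235 by edgeR). The other 2 set Metadcarc1511.2 above TCC0840 and Adcarc0846. No neighbours in the order of the 8 lines passed the test, the adjusted p for these 7 comparisons lying between 0.0235 and 1. MMP2 did not reach 10 counts in any line library and was not tested here. For the lines of dog 4, MMP3 was higher in the 2 metastasis lines than in the primary tumor line Adcarc1511.1 by a log2 fold change of 1.63 (SE 0.93), which was not called (adjusted p = 0.219 by edgeR, 10.0% of genes called).

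MMP3 was not called between lines and tissues in any comparison, and the spread within groups was large. The pooled lines ranged from 0 to 14.3 CPM with a median of 0.875 CPM and the tissues from 0 to 13.6 CPM with a median of 1.97 CPM, and the log2 fold change was -0.82 (SE 1.37, adjusted p = 0.683 by edgeR). It was -2.32 (SE 1.89, adjusted p = 0.392) for PAC and -0.03 (SE 1.91, adjusted p = 0.995) for TCC, with a difference of -2.28 (SE 2.65, adjusted p = 0.727) between them. Primary TCC and PAC tissues differed by 0.26 (SE 1.93, adjusted p = 0.948). Leaving out Ln4.2 turned the PAC value to 4.48 and moved the difference between tissue classes to 6.95. Leaving out P6.1 turned the TCC value to 0.68. Without TCC1509, which held 743 of the 814 MMP3 counts of the TCC lines, the TCC value was -2.93. The value of all lines against all tissues was then -2.41. None of these was called. Standard errors of this size leave room for changes of several fold in either direction.

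The matched samples did not share a direction for MMP3. Ln4.2 had 5.71-fold more than Metadcarc1511.2 (4.52 to 7.21) and B7 had 7.40-fold more than TCC1506 (5.55 to 9.95), whereas Metadcarc1511.3 had at least 3.40-fold more than Ln4.3 and TCC1509 1.22-fold more than P6.1 (1.05 to 1.43, counting error only). The last value rests on 1 library: without replicate 2, a setting added after the values were seen, TCC1509 had 10.8 CPM, below P6.1 with 11.7 CPM. Adcarc0846 and P2 were both at or under the floor. The paired log2 fold changes were -0.68 (SE 1.73, adjusted p = 0.778) for the PAC metastases and -1.29 (SE 1.14, adjusted p = 0.912) for TCC by edgeR.

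MMP3 also differed between libraries of the same line. For the 6 lines with 3 libraries, the first library came from an earlier passage than the other 2. In TCC1509, MMP3 was at 5.53 CPM in passage 77 and at 21.9 and 15.9 CPM in both libraries of passage 85. In Metadcarc1511.2 it was at 0.344 CPM in passage 68, 2.01 CPM in passage 75 and 4.45 CPM in passage 79. TCC1506 held 1 count in passage 98 against 55 and 15 counts in passages 106 and 107.

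The step was smaller in the remaining lines. Metadcarc1511.3 had 6 counts in passage 79 and 18.05 and 12 in passages 86 and 87, and Adcarc1511.1 had 3 counts in passage 88 and 8 in each of passages 94 and 95. Adcarc1508 was the exception, with 0.803 CPM in passage 97, 1.88 CPM in passage 105 and 0.556 CPM in passage 106. Both later libraries were thus above the earliest in 5 of 6 lines. Among these 5 were Metadcarc1511.2, Metadcarc1511.3 and Adcarc1511.1, all of dog 4.

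**Figure D3:**
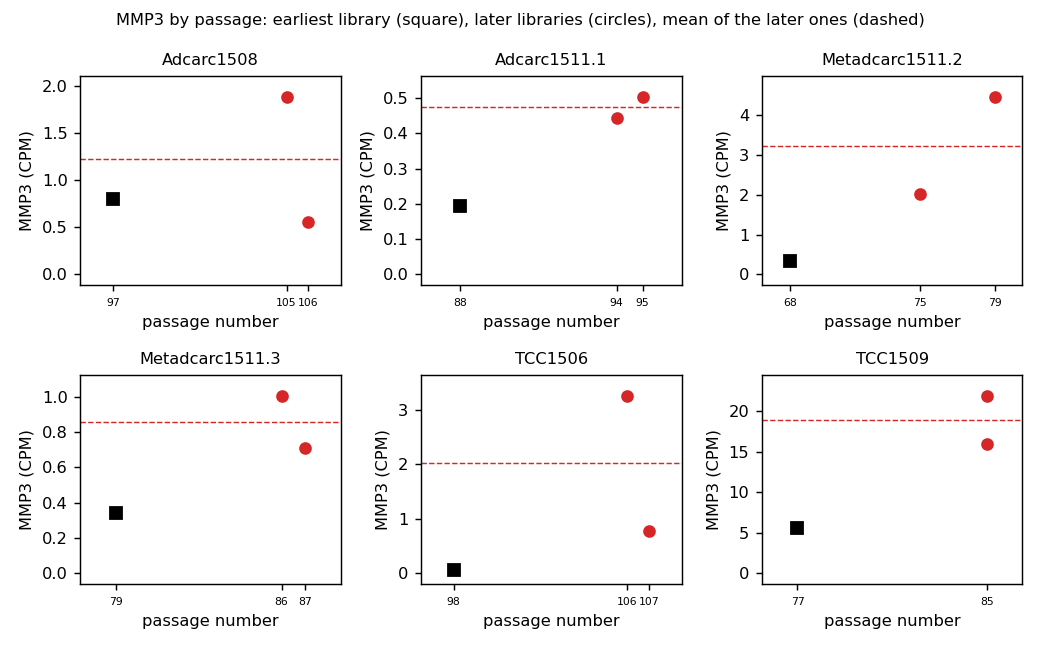
MMP3 in CPM against passage number in the 6 cell lines with 3 libraries, with a black square for the earliest library, red circles for the later ones and a dashed line at the mean of the later ones; the axes differ between panels. The square lies below both circles in 5 of the 6 lines, Adcarc1508 being the exception.

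Over the 6 lines MMP3 was higher in the later libraries by a log2 fold change of 1.91 (SE 0.45, adjusted p = 0.00825 by edgeR with the line as a covariate), among 2.84% of 14351 genes called. The value stayed between 1.62 and 2.28 when each line was left out. The call was lost without Metadcarc1511.2 (adjusted p = 0.0383 by edgeR), TCC1509 (0.0323), Metadcarc1511.3 (0.0202) or Adcarc1511.1 (0.0128). Adcarc1511.1, Metadcarc1511.2 and Metadcarc1511.3 of dog 4 were fitted as separate lines, so the 6 lines stand for fewer dogs. The earliest library is replicate 1 in all 6 lines, so replicate number and passage form the same contrast. Libraries of the same number deviated together across lines over all genes (r above 0.1 in 40 of 45 pairs). The highest r was 0.84, between replicate 1 of Metadcarc1511.2 and of Metadcarc1511.3. The fit treats libraries of different lines as independent, and what the replicate 1 libraries share is part of the difference tested. Without TCC1506, whose libraries carry sample numbers of both series, the log2 fold change was 1.62 and was called (adjusted p = 0.00911). The summed epithelial markers were lower in the later libraries in 6 of 6 lines (860 to 6300 CPM in the earliest, 732 to 5418 CPM in the later ones), while the stromal sum was higher in 3 of 6, and their part in the MMP3 difference was not tested. Of the 10 epithelial markers only LAMB3 was itself called lower in the later libraries (log2 fold change -1.29, SE 0.28). The other epithelial markers had values from -0.28 (OCLN) to 0.35 (PKP3), with CLDN7, F11R and PKP3 above 0, and were not called. Passage number, the time of harvest and any batch shared by the replicate 1 libraries cannot be told apart.

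The genes around both proteases were followed in 7 lists by role, 83 genes besides the members. All are from the study's ranking on these lines, so that their counts are not independent of it. Between lines and tissues 39 of the 83 fell in the lines and 1 rose, which is 48.2% called against 16.4% of all genes, with a median log2 fold change of -3.89 against -0.10 for all genes. In 28 of the 83 every line was below every tissue, which held for 5.16% of all genes. The stromal, endothelial and leukocyte marker sums given above were lower in most lines than in every tissue. TCC1509, Metadcarc1511.2 and TCC0840 were the respective exceptions. All stromal markers except ISLR are themselves among the 83 genes, so the stromal sum and these counts are not separate. The part of the marked cell types in these counts was not tested.

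Of the 10 extracellular proteases, 5 fell, MMP2 included, and none rose. CTSK, the collagen-degrading cathepsin K, had 1.52 to 3.79 CPM in the lines and 6.99 to 353 CPM in the tissues (log2 fold change -6.06, SE 0.67). ADAM10, a membrane-bound sheddase, had the highest log2 fold change of the list, with 94.6 to 204 CPM in the lines and 64.1 to 114 CPM in the tissues, and was not called (0.63, SE 0.18). Of the 3 protease inhibitors SERPINA1 fell (-7.40, SE 1.53). A2M, a broad inhibitor of proteases, had 0 to 824 CPM in lines and 1.15 to 696 CPM in tissues and was not called.

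Of 15 collagens 11 fell and 1 rose, with a list median of -7.76. COL1A2, the lowest, had at most 0.269 CPM in a line and at least 110 CPM in a tissue (log2 fold change -15.87, SE 1.75), and COL1A1 fell by 10.94 (SE 2.36). COL4A1, a chain of basement membrane collagen IV and thus of a substrate of MMP2, had 0.026 to 124 CPM in the lines and 165 to 3474 CPM in the tissues (-4.59, SE 1.20). COL3A1 was not called (-6.48, SE 2.18) and reached 577 CPM in 1 line. COL10A1 was the exception that rose (3.93, SE 1.00).

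Of 24 other matrix proteins 14 fell, with EFEMP1 (-14.72, SE 2.17), which encodes a fibulin, as the lowest and LAMB3, a laminin chain of epithelial basement membranes, as the highest (1.13, SE 0.83, not called). ELN, which encodes elastin, was at 0 in 7 of 8 lines (-12.81, SE 1.87), and SPARC fell by 7.96 (SE 1.99), whereas the proteoglycan DCN was not called (-4.17, SE 2.23). Of 12 genes of collagen processing 5 fell, PXDN the most (-13.36, SE 1.19), while LOX, a collagen crosslinking enzyme, had the highest value and was not called (0.20, SE 1.22).

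Of 11 integrins, receptors for matrix, 2 fell, a share near that of all genes. These were ITGA11 (-10.99, SE 1.22) and ITGA4 (-8.58, SE 1.22). ITGAV, which pairs with ITGB3 to a receptor known to bind MMP2, had 175 to 1609 CPM in lines and 273 to 1656 CPM in tissues and was not called (-0.62, SE 0.45), nor was ITGB3 (1.11, SE 0.40, adjusted p = 0.0432 by edgeR) or ITGA2 (2.24, SE 0.64, adjusted p = 0.0130), the highest of the list. A list of 10 genes held signals that can regulate metalloproteinases, with receptors and transducers among them. Of these genes IL6 (-11.50, SE 1.76) and STAT3 (-1.54, SE 0.28) fell, which is also a share near that of all genes. OSM (-4.00, SE 1.36), EGFR (-0.10, SE 0.37) and FGF2 (2.13, SE 0.94) were not called.

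**Figure D4:**
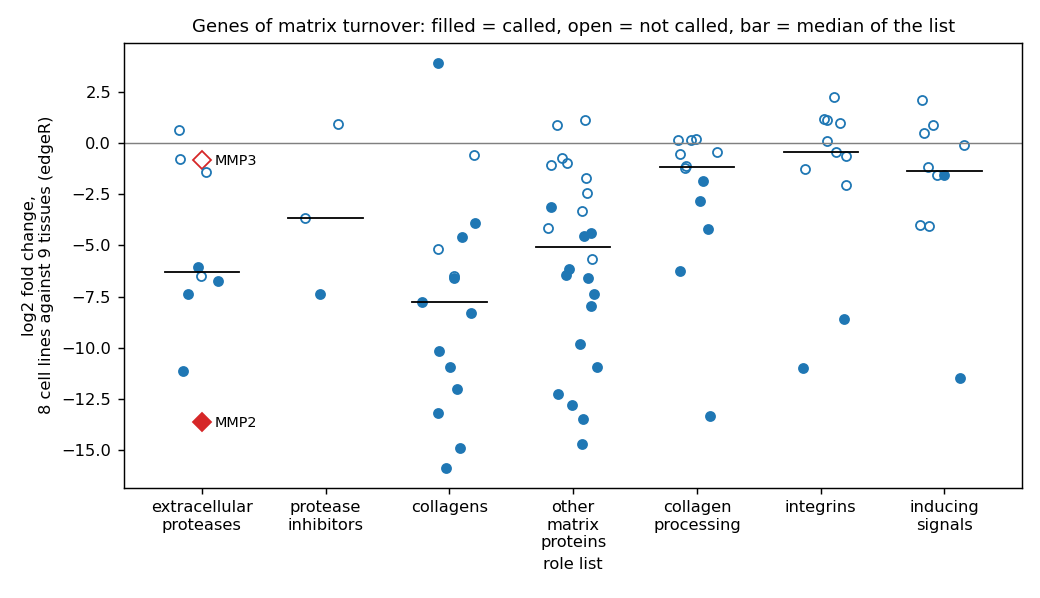
The edgeR log2 fold change of 8 cell lines against 9 tissues for the genes of 7 role lists, with 1 point per gene (filled where called, open where not), red diamonds for MMP2 and MMP3, and a bar at the median of each list. MMP2 lies at -13.64 among the lowest genes shown and MMP3 at -0.82 near 0, and the collagens have the lowest list median (-7.76).

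Between the earliest and later libraries, 65 of the 83 genes could be tested. COL5A3 (-2.09, SE 0.42), LAMB3 (-1.29, SE 0.28) and LOXL4 (-2.16, SE 0.23) fell and none rose, which is 4.62% called against 2.84% of all genes. Of 6 proteases tested MMP3 was called and the other 5 were not, and their difference from MMP3 was not tested. Of 8 genes of the signal list and 9 integrins none was called.

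The genes closest to MMP3 over the 17 pooled samples were GDF15 (Pearson r = 0.68), which encodes a stress-induced cytokine, FANK1 (0.62), MAP3K2 (0.62), RNF24 (0.59) and CEP19 (0.58), all weaker than those of MMP2. Over the 9 tissues they were OLR1 (0.86), a scavenger receptor, ERO1A (0.80), an oxidoreductase of the endoplasmic reticulum, ITGA2 (0.72), which encodes a subunit of a collagen receptor, the cadherin CDH3 (0.71) and LAMB3 (0.70). Of the 9 tissues, 3 were at 0 counts and P2 at 1. The named genes are the highest of 1090, and whether such values exceed what this search gives by chance was not tested. Spearman's rho kept 2 of the 5 genes over 17 samples and 1 of the 5 over 9 tissues.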

How the data were processed

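RNA was sequenced as single 75 bp reads from 22 libraries of 8 cell lines and 9 tissues, each on 4 lanes. Per the submitters' processing notes the authors used bcl2fastq 2.15.0.4, Trimmomatic 0.36, STAR 2.5.3 and RSEM 1.3.0, with CanFam3.1 as the genome according to the methods. The authors deposited RSEM expected counts per lane without normalization, and their TPM beside them. RSEM splits reads shared by similar genes, and the values of MMP3 were not whole in 6 of the 24 libraries above 0 (MMP2: 3 of 14).

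Expected counts were summed over lanes, and over the libraries of a line where samples were pooled, and rounded for tests. CPM used the total counts, TPM was averaged over lanes. Tests were edgeR 4.0.16 (TMM, quasi-likelihood, Benjamini-Hochberg over all genes tested) in R 4.3.3, with calls requiring an adjusted p not above 0.01 and a change of 2-fold or more (the F test among lines by p alone). Genes needed at least 10 counts in 3 pooled samples or 2 line libraries, or, for pairs, in both lines or both tissues. The pairs of line and tissue come from the labels and were a covariate. Each SE is the log2 fold change over the square root of its F value. The edgeR tests of lines against tissues, of pairs, of earliest against later libraries and of metastasis lines against Adcarc1511.1 were tried on simulated counts. The other tests were not.

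MMP2 and MMP3, the lists and the alternatives were chosen with earlier results of these data known. Named genes were the highest and lowest of each role list in lines against tissues, further genes of these lists (A2M, COL1A1, COL3A1, COL4A1, ELN, DCN, SPARC, ITGAV, ITGB3, CTSK, OSM and EGFR), and the 5 genes closest to each member by Pearson r. The rule listed a further gene, which is not reported here. COL5A3, LOXL4, ITGA4 and STAT3 were named after their values were seen. Alternatives were DESeq2 1.42.0, RLE normalization, other filters, leaving out samples, limma 3.58.1 with the dog as a random effect, unpooled libraries, pairing, TPM and Spearman's rho. Intervals and floors cover counting error only.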

Additional observations from a re-analysis of the deposited data

Results flagged for a closer look

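Of 8 groups of samples tested for a sample far from the others on the CPM scale, 3 had one. The rule takes about 1 flag in 20 groups as chance, a rate that was not tested for skewed values such as CPM. MMP2 in P2 (2051 CPM) stood apart from the next of the 9 tissues (975 CPM). MMP3 in TCC1509 (14.3 CPM) stood apart from the next of the 8 pooled lines (2.37 CPM). MMP2 in TCC1506 (0.169 CPM) stood apart from the next line (0.0577 CPM), which rests on 9 and 3 counts.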

How the results depend on the processing

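MMP2 remained lower and called in lines against tissues in all 8 other settings (-14.00 to -13.23 on the log2 scale) and with each of 17 samples left out. With line libraries of the tissues' series only, it was -17.42 for PAC and -10.98 for TCC, no longer called. Adcarc0846 is then the only PAC line and is assumed to vary like the other groups. This line held 0 MMP2 counts, so the size of -17.42 is not measured. MMP2 in the PAC metastasis pairs was -17.08 without the pair as a replicate block, no longer called, and in the TCC pairs -10.98 and called by DESeq2. Both PAC metastasis lines were at 0 MMP2 counts, so the size of -17.08 is not measured either. For MMP3 in TCC lines against tissues the direction reversed without a filter (0.18) and with unpooled libraries (0.19), and in the PAC metastasis pairs by DESeq2 (0.86), never called. With 1 sample left out, MMP3 ran from -2.93 to 0.68 for TCC, -3.12 to 4.48 for PAC (above 0 without Ln4.2), -3.19 to 4.41 for their difference and -0.47 to 6.95 for primary TCC against PAC tissues. With 1 line left out, the later against earliest libraries ran from 1.62 to 2.28, called in 2 of 6. By TPM, P2 exceeded B10 for MMP2 by 34.4-fold and not 26.2-fold.

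The study's own filter left MMP3 untested between lines and tissues. Same-numbered libraries of different lines deviated together with r above 0.1 in 40 of 45 pairs, and 17 of 18 libraries correlated best with their own number, a hint from the data only. With this replicate block the lines differed in MMP3 with an adjusted p of 9.68e-07, 10814 genes and not 9940 were called among lines, and the metastasis lines against Adcarc1511.1 had 1.60, not called. Of the 5 genes closest to a member by Pearson r, Spearman's rho kept 0 and 1 for MMP2 and 2 and 1 for MMP3, over 17 samples and 9 tissues.

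Counts of called genes moved by over 1.5 times as follows. DESeq2 called 1738 and not 450 genes in TCC, 481 and not 1 for the difference, 1038 and not 65 between tissue classes, and 4841 and not 1701 in the PAC metastasis pairs. The study's filter gave 1364 and not 2672 in lines against tissues, 299 in TCC, 3 for the difference and 151 between tissue classes. RLE gave 114 between tissue classes, and no filter gave 2 for the difference and 679 and not 407 by passage. With the tissues' series only, 86 genes were called in lines against tissues, 0 in PAC (3765 at an unadjusted p below 0.05), 0 in TCC (3104), 0 for the difference (1483) and 2 between tissue classes. Unpooled libraries gave 3810 and not 2374 in PAC, 2405 in TCC, 533 for the difference and 586 between tissue classes, and 1 line and 1 tissue per dog gave 1175. With 1 sample left out, TCC gave 108, 125 and 102 without TCC0840, TCC1506 and TCC1509 and 845 without B7, PAC 1515 without P2, the difference up to 32 (without TCC0840), tissue classes 0 (B9) to 136 (TCC1506), and passage 147, 130 and 202 without Adcarc1508, Metadcarc1511.2 and Metadcarc1511.3. Among lines 3968 genes were called without replicate 2, and for the metastasis lines 383 and 796 and not 1467 without replicate 2 or 3.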
